A study of Mus musculus with 4 samples.

Results

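Integrins, laminins and the proteins that link laminins into basement membranes were examined in RNA from contused mouse spinal cord. The set took every listed gene whose symbol names an integrin alpha or beta chain, a laminin alpha, beta or gamma chain or a nidogen, together with agrin (Agrn) and perlecan (Hspg2). It held 35 of the 14718 genes listed at either time point. RefSeq names 41 mouse genes of this kind, and 6 of them were listed at neither time point (Itga2, Itga11, Itgae, Itgb6, Lama1 and Lama3). Male mice aged 3 to 5 months, in which the human ApoE3 or ApoE4 isoform replaces the mouse gene, received a mid-thoracic contusion of 50 kdyne. Lesion segments were taken at 7 or 21 days post injury (dpi), which gave 4 groups: ApoE3 at 7 dpi, ApoE4 at 7 dpi, ApoE3 at 21 dpi and ApoE4 at 21 dpi. All 4 groups were injured, and uninjured cord was not analysed here. The comparison of genotypes asks how the lesion differs between carriers of either isoform, and the comparison of days asks how it changes over time.

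Integrins are cell surface receptors made of an alpha and a beta chain that bind matrix proteins or other cells and pass force and signals to the actin cytoskeleton. Laminins are trimers of an alpha, a beta and a gamma chain that form the sheet of a basement membrane, the thin matrix layer under endothelium and around muscle fibres, Schwann cells and the glial limit of the cord. Nidogens, agrin and perlecan tie the laminin sheet to collagen IV and to receptors such as dystroglycan. In injured cord these genes are known from leukocytes that enter the lesion, from vessels and their pericytes, from scar-forming fibroblasts and from astrocytes.

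Levels are FPKM (fragments per kilobase of transcript, scaled to the size of the library), a unit that allows genes to be set side by side per length. The table held 1 value per gene and group, for 3 mice a group by the methods of the study, so no difference below has a replicate check and no p-value was computed. The number of reads behind each value is unknown. One replicate of the experiment aligned at a clearly lower rate than the others, and its group is not given in the sources used here. The genotype of the value columns also rests on a reading of the table. Each row names its comparison as ApoE3 versus ApoE4, marks ApoE3 as the treated sample and takes its ratio as the first value over the second, and the values were read in that order. The numbering of the columns would put ApoE4 first. Under that reading every genotype direction below is the opposite, and the ApoE3 and ApoE4 results over time trade places.

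A gene was absent from the table at a time point unless its comparison had been computed, so a gene not listed is not a gene at 0. Of the 35 genes, 33 were listed at 7 dpi, 27 at 21 dpi and 25 at both. Hspg2 and Itgad were listed only at 21 dpi, and Itga3, Itga4, Itga8, Itga10, Itgal, Itgb2 and Lamb3 were among those listed only at 7 dpi. No filter on low values was applied. Differences are log2 ratios with 1 FPKM added to each value, a scale that understates the change of genes with low levels. Before the ratio was taken, the values of one group were multiplied by a factor that put the median of all genes with a mean of at least 1 FPKM at 0. A gene was called higher or lower when its scaled ratio passed a fold of 1.3, which is 0.38 on the log2 scale.

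The segments carried the marker genes of spinal cord. In the 4 groups, in the order ApoE3 and ApoE4 at 7 dpi and ApoE3 and ApoE4 at 21 dpi, Mbp of oligodendrocytes was at 120571, 127575, 201348 and 278678 FPKM. Gfap of astrocytes was at 12395, 12386, 8201 and 15313 FPKM, and Snap25 of neurons at 3366, 2545, 5336 and 7812 FPKM. Markers of other tissues were present as well and differed between groups at 21 dpi, and they are given beside the results below. In bulk samples such as these, fewer cells of a type and less RNA per cell cannot be told apart.

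**Figure D1:**
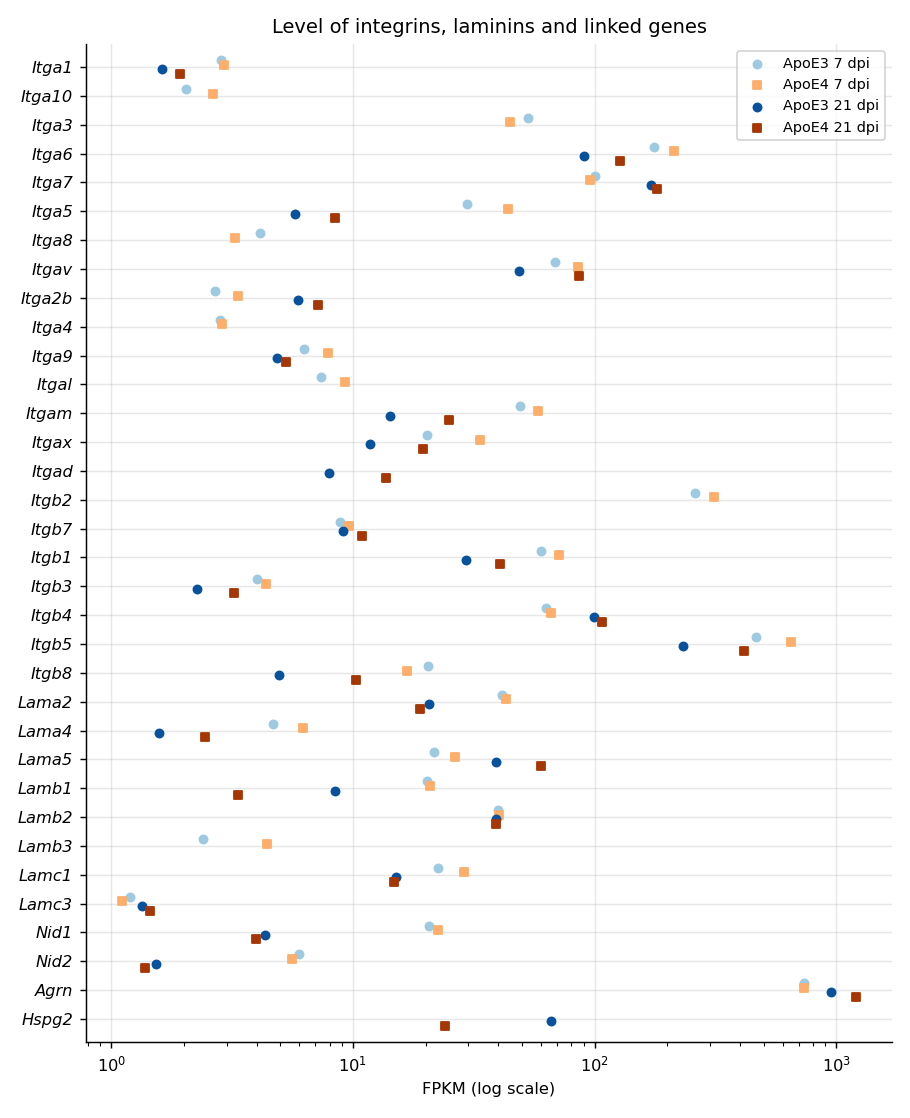
FPKM of each member reported by name on a log axis, with 1 point per group (circles for ApoE3 and squares for ApoE4, light for 7 dpi and dark for 21 dpi). Agrn and Itgb5 lie farthest to the right in every group, and most integrins sit lower at 21 than at 7 dpi.

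The genes spanned almost 3 orders of magnitude. Agrn, a heparan sulfate proteoglycan that clusters receptors at synapses and binds laminin, had the highest level in all 4 groups, with 734 and 735 FPKM at 7 dpi and 946 and 1203 FPKM at 21 dpi in ApoE3 and ApoE4. Itgb5, the beta chain that pairs with Itgav to bind vitronectin and other ligands with an arginine-glycine-aspartate (RGD) motif, came next with 466, 648, 231 and 415 FPKM in the same order of groups. Itgb2, the shared beta chain of leukocyte integrins, ranked behind them at 7 dpi with 261 and 312 FPKM. Itgb2 was not listed at 21 dpi, and next among the genes listed there was Itga7, a laminin-binding alpha chain, with 171 and 181 FPKM. At the low end stood Lamc3, a gamma chain, with 1.11 to 1.44 FPKM. The median gene of the set lay at 20.4 and 22.6 FPKM at 7 dpi, below the medians of 33.0 and 33.0 FPKM over all listed genes. At 21 dpi the medians were 11.8 and 14.8 FPKM for the set and 26.9 and 36.8 FPKM over all genes.

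Upstream sequence is shown for 5 genes, 3 that were called lower in ApoE3 at 7 dpi and the 2 with the highest ratios at 21 dpi, so that the results below can be read beside it. RefSeq promoters of build GRCm38.p6 were matched by symbol for 26 of the 41 genes. The 250 bases before each start were searched on both strands for GAGGAA, the core bound by the myeloid factor PU.1, for TGANTCA, the AP-1 motif in which N is any base, for the GC box GGGCGG and for TATAAA. Capitals mark the matches of any of these motifs, on either strand. Itgax encodes the alpha chain CD11c, Itga5 the fibronectin receptor chain, Hspg2 perlecan and Lamb1 a laminin beta chain. Their regions were chr7:128129300-128129549 on the plus strand (Itgax), chr15:103366792-103367041 on the minus strand (Itga5), chr16:33829415-33829664 on the plus strand (Itgb5), chr4:137468553-137468802 on the plus strand (Hspg2) and chr12:31265043-31265292 on the plus strand (Lamb1).
Itgax: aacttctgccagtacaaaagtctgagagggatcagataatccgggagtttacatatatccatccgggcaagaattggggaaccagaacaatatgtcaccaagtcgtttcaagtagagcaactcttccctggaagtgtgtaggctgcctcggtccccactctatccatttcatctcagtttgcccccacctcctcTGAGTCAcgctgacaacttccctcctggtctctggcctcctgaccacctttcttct
Itga5: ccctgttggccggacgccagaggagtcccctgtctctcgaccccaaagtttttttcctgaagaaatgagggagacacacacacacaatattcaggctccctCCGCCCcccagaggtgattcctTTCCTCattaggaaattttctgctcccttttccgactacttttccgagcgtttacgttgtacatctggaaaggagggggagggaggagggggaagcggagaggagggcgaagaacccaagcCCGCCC
Itgb5: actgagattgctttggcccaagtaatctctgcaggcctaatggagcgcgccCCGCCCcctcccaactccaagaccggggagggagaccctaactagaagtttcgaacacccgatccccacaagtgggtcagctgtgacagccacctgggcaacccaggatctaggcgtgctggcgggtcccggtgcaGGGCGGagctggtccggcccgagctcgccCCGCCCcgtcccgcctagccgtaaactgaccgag
Hspg2: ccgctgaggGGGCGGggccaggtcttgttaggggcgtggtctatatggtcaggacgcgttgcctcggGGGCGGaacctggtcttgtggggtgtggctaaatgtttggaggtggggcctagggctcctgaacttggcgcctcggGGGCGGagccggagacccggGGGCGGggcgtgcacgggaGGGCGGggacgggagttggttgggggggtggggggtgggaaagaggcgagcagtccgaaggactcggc
Lamb1: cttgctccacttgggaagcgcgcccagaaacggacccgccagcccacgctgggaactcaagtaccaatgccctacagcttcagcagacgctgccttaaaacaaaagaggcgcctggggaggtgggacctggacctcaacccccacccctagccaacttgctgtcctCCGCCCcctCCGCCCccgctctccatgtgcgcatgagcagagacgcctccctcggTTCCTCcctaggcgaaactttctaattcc
The Itgax region held 1 match to TGANTCA and none to the other motifs. The Itga5 region held 1 GAGGAA and 2 GGGCGG, the Itgb5 region 3 GGGCGG, the Hspg2 region 5 GGGCGG, and the Lamb1 region 1 GAGGAA and 2 GGGCGG. Of the 30 promoters of the 26 genes, 14 (46.7%) held GAGGAA, 13 (43.3%) GGGCGG, 1 (3.33%) TGANTCA and 0 TATAAA. Over all 32851 promoters in the table the shares were 23.3%, 32.7%, 6.75% and 12.4%. A match describes the letters in the window only.

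At 7 dpi most members had a lower level in ApoE3 than in ApoE4. The median ratio of ApoE3 over ApoE4 was -0.25 for the 21 integrins, with 17 below 0, and -0.05 for the 12 laminins, nidogens and agrin, with 9 below 0. Of the 33 genes listed, 26 had a lower level in ApoE3, and the median ratio was -0.13 against 0.00 over all 14125 genes. Itga5, Itgax, Itgb5 and Lamb3 were called lower in ApoE3. That is 4 of 33, beside 4.81% of all genes called lower. In the other direction 0 of 33 were called higher, beside 3.77% of all genes. The median unscaled ratio of all genes was 0.00, so scaling played no part at this time point.

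Among receptors for RGD ligands, Itga5 stood at 29.5 FPKM in ApoE3 and 43.9 FPKM in ApoE4 at 7 dpi, a ratio of -0.56. This chain pairs with Itgb1 to bind fibronectin. Itgav, which pairs with several beta chains, was at 68.7 and 85.6 FPKM (-0.32), just inside the fold. The fibrinogen-binding chain of platelets, Itga2b, was at 2.69 and 3.35 FPKM (-0.24). Itga8, a chain of mesenchymal and smooth muscle cells, ran the other way at 4.14 and 3.24 FPKM (0.28), which did not pass the fold.

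The leukocyte chains had ratios below 0 at 7 dpi, of which only Itgax passed the fold. Itgax had 20.3 FPKM in ApoE3 and 33.7 FPKM in ApoE4, a ratio of -0.70 and the lowest of the 33 genes. Itgam, the alpha chain CD11b of myeloid cells, had 48.9 and 58.3 FPKM (-0.25), and Itgal, the alpha chain of LFA-1 on lymphocytes and other leukocytes, had 7.403 and 9.25 FPKM (-0.29). Their partner Itgb2 had 261 and 312 FPKM (-0.26). The ratio of Itgb2 to Itgam, which needs no scaling, was 5.34 in ApoE3 and 5.35 in ApoE4, so these partners differed between genotypes by the same proportion. The ratio of Itgam to Itgax was 2.41 and 1.73, and at 21 dpi it was 1.21 and 1.28. Itgb7, a beta chain of lymphocyte homing receptors, was at 8.85 and 9.67 FPKM (-0.12). Itgam and Itgax are direct neighbours on the mouse chromosome, with Itgad next to them.

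Markers of monocytes and macrophages leaned the same way as these genes. Of the monocyte and macrophage list, 9 of 10 genes were listed at 7 dpi, 4 were called lower in ApoE3 and 0 higher, with a median ratio of -0.37. Their summed level was 7079 FPKM in ApoE3 and 9313 FPKM in ApoE4, and the most abundant, Lyz2, was at 4522 and 6076 FPKM. Cd163 was not listed. Microglial markers did not: 0 of the 6 listed genes were called in either direction, the median was 0.08, and the sums were 1094 and 1185 FPKM. P2ry12 and Cx3cr1 were not listed. Of the neutrophil list, 6 of 12 genes were listed, 3 called higher and 1 lower, while its most abundant gene, Csf3r, was at 485 and 589 FPKM, with sums of 537 and 622 FPKM. The part of cell numbers in the integrin ratios was not tested.

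Laminin-binding and collagen-binding alpha chains did not pass the fold at 7 dpi. Itga6, found on endothelium and glia, had 176 FPKM in ApoE3 and 212 FPKM in ApoE4 (-0.27). Itga3 had 53.1 and 44.6 FPKM (0.24), and Itga7, which is prominent in muscle and also present in glia and neurons, had 100 and 95.5 FPKM (0.06). The collagen receptors Itga1 and Itga10 were low, at 2.84 and 2.92 FPKM (-0.03) and at 2.04 and 2.64 FPKM (-0.26). Itga4 and Itga9, receptors for VCAM1, fibronectin and tenascin, had 2.81 and 2.88 FPKM (-0.03) and 6.29 and 7.87 FPKM (-0.28).

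Among the remaining beta chains, Itgb5 was the only one past the fold at 7 dpi, with 466 FPKM in ApoE3 and 648 FPKM in ApoE4 (-0.48). Itgb1, the most widely shared beta chain, was at 59.7 and 71.1 FPKM (-0.25). Itgb3, of platelets and angiogenic vessels, was at 4.02 and 4.35 FPKM (-0.09), and Itgb4, the partner of Itga6 in hemidesmosomes and on Schwann cells and endothelium, at 63.1 and 65.7 FPKM (-0.06). Itgb8, a chain of astrocytes and neural progenitors that activates latent TGF-beta, was higher in ApoE3 at 20.4 and 16.8 FPKM (0.26). The ratio of Itgb5 to Itgb1 was 7.81 in ApoE3 and 9.11 in ApoE4.

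Laminin chains were mixed at 7 dpi. Lama2, a chain of pericyte, astrocyte, muscle and Schwann cell basement membranes, had 41.3 FPKM in ApoE3 and 42.9 FPKM in ApoE4 (-0.05). Lamb1 had 20.3 and 20.9 FPKM (-0.04), Lamb2 had 39.8 and 40.3 FPKM (-0.02), and Nid1 had 20.6 and 22.6 FPKM (-0.13). The endothelial chains Lama4 and Lama5 were lower in ApoE3, with 4.68 and 6.21 FPKM (-0.34) and with 21.6 and 26.4 FPKM (-0.28), and so was Lamc1, the gamma chain of most laminins, with 22.5 and 28.9 FPKM (-0.35). None of these 3 passed the fold. Lamb3, an epithelial beta chain, passed it at low levels of 2.41 and 4.40 FPKM (-0.67). Lamc3 had 1.19 and 1.11 FPKM (0.05), Nid2 had 5.999 and 5.58 FPKM (0.09), and Agrn had a ratio of 0.00.

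**Figure D2:**
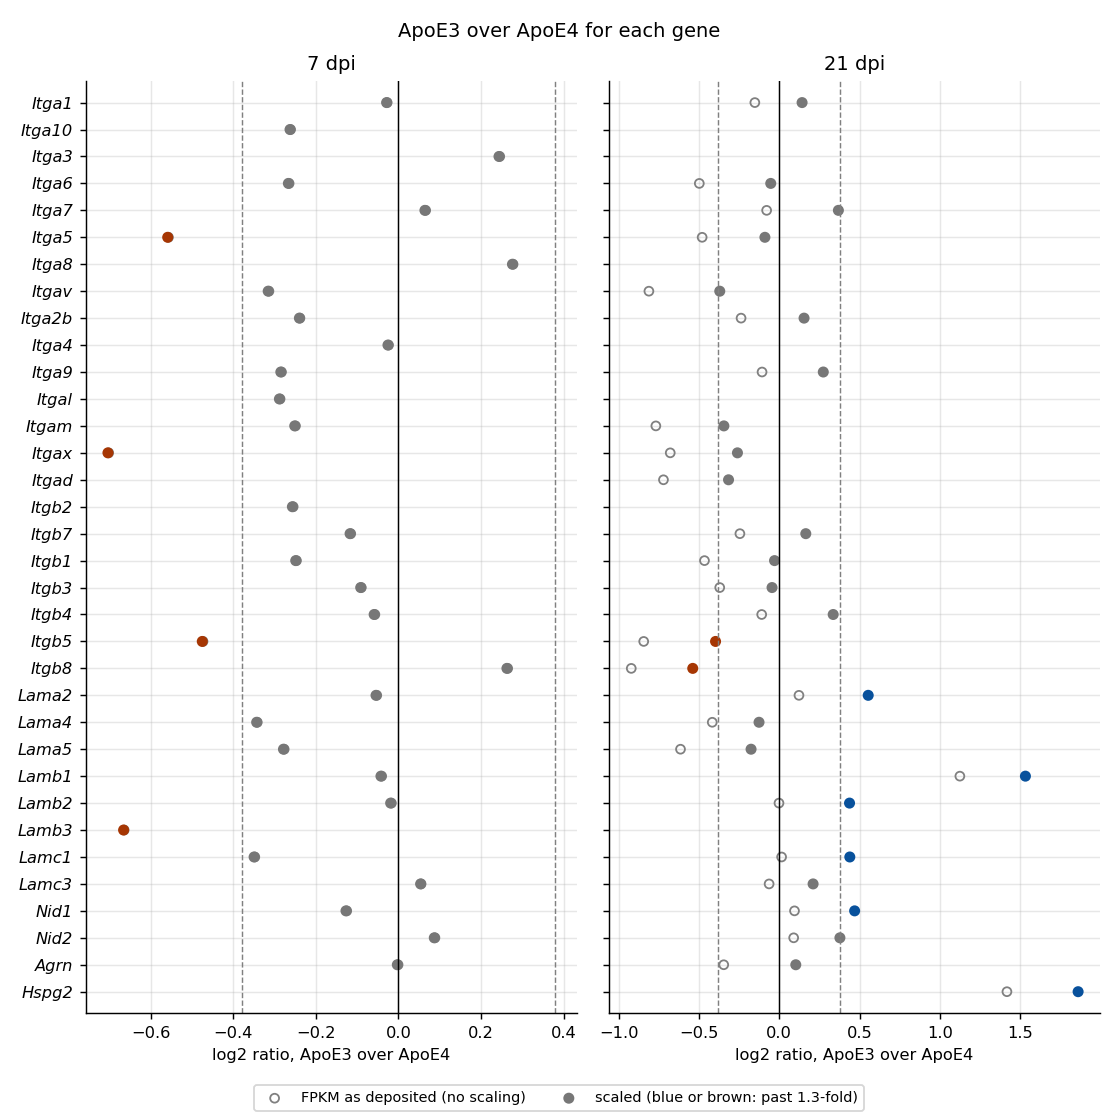
Log2 ratio of ApoE3 over ApoE4 for each member reported by name at 7 dpi (left) and 21 dpi (right), with filled points for scaled values, open circles for values as deposited, and dashed lines at a fold of 1.3. At 7 dpi the open circles lie behind the filled points, whereas at 21 dpi scaling moves every gene to the right, and blue points (called higher in ApoE3) are laminins, Nid1 and Hspg2 while brown points (called lower) are Itgb5 and Itgb8.

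At 21 dpi the laminin side of the set lay higher in ApoE3 relative to the median gene, while the integrins did not. Of the 27 genes listed, 6 were called higher in ApoE3, namely Hspg2, Lamb1, Lama2, Nid1, Lamc1 and Lamb2. Only Itgb5 and Itgb8 were called lower. These counts stand beside 7.0% of all 11472 genes called higher and 8.99% called lower. Laminins, nidogens, agrin and perlecan had a median ratio of 0.44 over 11 genes, with 9 above 0, and the 16 integrins a median of -0.05, with 6 above 0.

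These calls depend on the scaling. As deposited, 93.8% of all genes had a lower value in ApoE3 than in ApoE4 at 21 dpi, and the median log2 ratio was -0.42. It was -0.45 without the added 1 FPKM over the 11365 genes that set the scaling factor. Also without the added 1 FPKM, the shift ran through all levels of expression, from -0.52 in the lowest sixth of genes by mean FPKM to -0.41 in the highest. Without scaling, 2 of the 27 genes were called higher, Hspg2 and Lamb1, beside 2.01% of all genes, and 11 were called lower, beside 58.9% of all genes. The unscaled median was 0.01 for the laminin side and -0.47 for the integrins. The laminin side therefore lay higher relative to the median gene, whereas as deposited 6 of its 11 genes were above 0, Hspg2 and Lamb1 were called higher and Lama4 and Lama5 lower. The cause of the shift was not tested.

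Hspg2 had the highest ratio at 21 dpi, with 66.1 FPKM in ApoE3 and 24.1 FPKM in ApoE4 (1.86 scaled and 1.42 as deposited). Lamb1 came next with 8.45 and 3.33 FPKM (1.53 and 1.12). Both were higher in ApoE3 on either scale. Lama2 was at 20.7 and 18.9 FPKM (0.55 scaled and 0.12 as deposited), Nid1 at 4.31 and 3.97 FPKM (0.47 and 0.09) and Lamc1 at 15.0 and 14.8 FPKM (0.44 and 0.01). Lamb2, a beta chain of vascular and synaptic basement membranes, was at 38.9 and 39.0 FPKM, which is 0.44 when scaled and 0.00 as deposited. Nid2, with 1.53 and 1.38 FPKM, lay at the fold without passing it (0.38).

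The laminin chains did not move as a block at 21 dpi. Lama5, the alpha chain of mature endothelium, was at 39.0 FPKM in ApoE3 and 60.3 FPKM in ApoE4 (-0.18 scaled and -0.61 as deposited), and Lama4 at 1.58 and 2.45 FPKM (-0.13 and -0.42), so both lay on the other side of 0 from Lama2. The ratio of Lama2 to Lama5 within a group was 0.531 in ApoE3 and 0.314 in ApoE4, and that of Lamb1 to Lamb2 was 0.217 and 0.0855. At 7 dpi the same quantities were 1.91 and 1.62, and 0.510 and 0.519. Ratios within a group need no scaling, so the lower share of Lama2 and Lamb1 in ApoE4 at 21 dpi does not depend on it. Agrn was at 946 and 1203 FPKM (0.10 scaled and -0.35 as deposited), and its ratio to Hspg2 was 14.3 in ApoE3 and 49.9 in ApoE4. Lamc3 was at 1.34 and 1.44 FPKM (0.21 scaled and -0.06 as deposited).

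Among the integrins at 21 dpi, Itgb8 and Itgb5 were lower in ApoE3 on either scale. Itgb8 had 4.97 FPKM in ApoE3 and 10.3 FPKM in ApoE4 (-0.54 scaled and -0.92 as deposited), and Itgb5 had 231 and 415 FPKM (-0.40 and -0.84). Itgav, the partner of both, had 48.8 and 86.4 FPKM (-0.37), just short of the fold, and was past it as deposited (-0.81). The scaled ratio of Itgb5 was only just past the fold, so Itgb5 and Itgav lay close to it on either side. On scaled values Itgb5 was thus the only gene of the 25 listed at both time points that was called lower in ApoE3 on both days. That stands beside 0.873% of the 10879 genes listed at both. None was called higher at both, beside 0.469%. As deposited Itga5 (-0.56 and -0.48) and Itgax (-0.70 and -0.68) were also called lower on both days. As deposited 58.9% of all genes were called lower in ApoE3 at 21 dpi alone, and the share of all genes for both days was not computed.

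The leukocyte alpha chains at 21 dpi again had lower values in ApoE3, though none passed the fold when scaled. Itgam was at 14.2 FPKM in ApoE3 and 25.0 FPKM in ApoE4 (-0.34), Itgax at 11.8 and 19.4 FPKM (-0.26) and Itgad, an alpha chain of macrophage subsets, at 7.95 and 13.7 FPKM (-0.32). Their ratios as deposited were -0.77, -0.68 and -0.72. Itgb7 was at 9.08 and 10.9 FPKM (0.16). Of the monocyte and macrophage list, 5 of 10 genes were listed at 21 dpi and 3 were called lower in ApoE3, with a median of -0.56. Their sum was 289 FPKM in ApoE3 and 565 FPKM in ApoE4, with Lyz2 at 212 and 426 FPKM, and Cd68, Mrc1, Ccr2, Cd163 and F13a1 were not listed. For microglia, 4 of 8 markers were listed and 1 was called lower (Siglech, the most abundant, at 123 and 237 FPKM), with a median of -0.22 (-0.66 as deposited, with all 4 called lower) and sums of 279 and 477 FPKM.

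Other integrins at 21 dpi stood near the median gene or above it. Itga7 and Itgb4 had the highest scaled ratios among integrins, at 171 FPKM in ApoE3 and 181 FPKM in ApoE4 (0.37) and at 99.6 and 108 FPKM (0.34). As deposited they were -0.08 and -0.11, so their direction turned with the scaling, as it did for the next 4 genes. Itga9 was at 4.83 and 5.28 FPKM (0.27), Itga2b at 5.92 and 7.17 FPKM (0.15), Itga1 at 1.63 and 1.92 FPKM (0.14), and Itgb7 as given above. Itga6 was at 90.3 and 128 FPKM (-0.05), Itga5 at 5.76 and 8.44 FPKM (-0.09), Itgb1 at 29.2 and 40.7 FPKM (-0.03) and Itgb3 at 2.26 and 3.22 FPKM (-0.05). Without scaling Itga6 (-0.50), Itga5 (-0.48) and Itgb1 (-0.47) were past the fold, and Itgb3 (-0.37) was not.

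Marker genes of peripheral nerve, ganglion, meninges and muscle also differed between the genotypes at 21 dpi. Of the Schwann cell list, 10 of 11 genes were listed and all 10 were called higher in ApoE3, with a median of 1.96 and sums of 3355 FPKM in ApoE3 and 1190 FPKM in ApoE4. The most abundant, Pmp22, was at 1970 and 992 FPKM, and at 693 and 671 FPKM at 7 dpi. Prx was not listed. Of the sensory ganglion list, 9 of 10 genes were listed and 8 were called higher in ApoE3, with a median of 2.17. Its sums were 810 and 839 FPKM because Calca, also made in the cord, was at 702 and 830 FPKM. Scn10a was at 20.1 and 0.153 FPKM, and in ApoE4 the values of Mrgprd and Trpv1 were 0.

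Fibroblast and meningeal markers also leaned to ApoE3 at 21 dpi, with 7 of the 8 listed genes called higher, a median of 0.81 and sums of 132 and 85.5 FPKM. Without scaling 5 of these markers were called higher and 1 lower, with a median of 0.47. Their most abundant gene was Pdgfra in ApoE4, at 42.0 FPKM in ApoE3 and 58.8 FPKM in ApoE4, and Dcn in ApoE3, at 61.9 and 9.37 FPKM. Dpt and Crabp2 were not listed. Skeletal muscle markers went the other way. All 8 listed of 12 were called lower in ApoE3, with a median of -3.80, sums of 34.1 and 732 FPKM, the most abundant gene Tnnt3 at 22.5 and 515 FPKM, and Myh4 listed at 0 in ApoE3. Schwann cells, fibroblasts and muscle all make basement membrane laminins. The part of such tissue in the ratios of Hspg2, the laminins and the nidogens was not tested.

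Vascular markers lay closer to the median gene at 21 dpi. Endothelial markers had 9 of 10 genes listed, 2 called higher in ApoE3 and 0 lower, a median of 0.11 (-0.32 as deposited) and sums of 664 and 786 FPKM, with the most abundant, Slco1a4, at 218 and 272 FPKM. Pericyte and smooth muscle markers had 8 of 10 listed, 1 called higher and 1 lower, a median of 0.19 (-0.24 as deposited) and sums of 204 and 240 FPKM, with Rgs5 at 86.8 and 109 FPKM. Astrocyte markers had all 8 listed and 1 called lower, a median of -0.27 (-0.72 as deposited, with all 8 called lower) and sums of 11339 and 20643 FPKM.

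**Figure D3:**
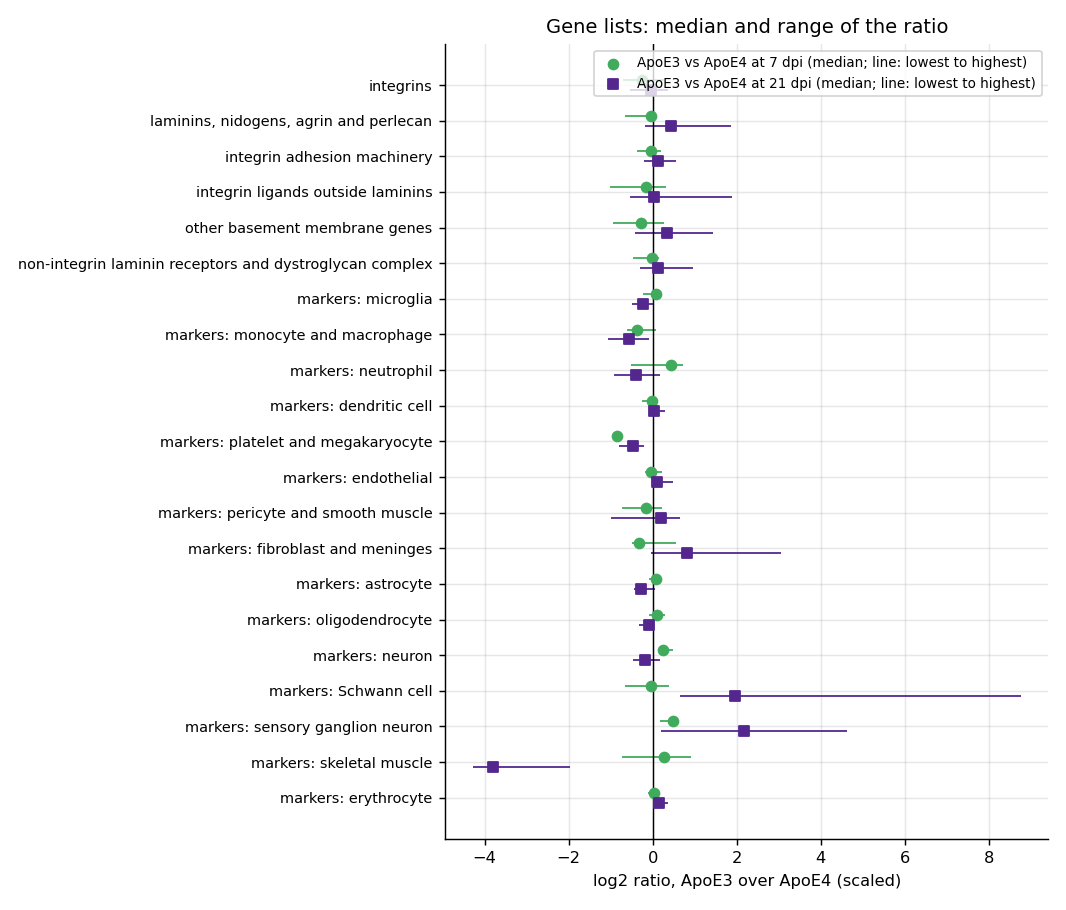
Median (symbols) and lowest to highest value (lines) of the scaled log2 ratio of ApoE3 over ApoE4 for each gene list at 7 dpi (green circles) and 21 dpi (purple squares). Schwann cell and sensory ganglion markers at 21 dpi lie to the right with medians of 1.96 and 2.17, and skeletal muscle markers to the left with a median of -3.80, whereas the medians of the integrins and laminins stay within 0.44 of 0.

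At 21 dpi most of the set was lower than at 7 dpi relative to the median gene, in both genotypes. The time points come from separate comparisons in the table, which were normalized separately, so the values over time are a description only. Each time comparison also shares its groups with the genotype comparisons above. In ApoE3, 17 of the 25 genes listed at both time points were called lower at 21 dpi and 4 higher, beside 27.7% and 26.4% of the 10879 genes listed at both. In ApoE4, 18 were called lower and 2 higher, beside 28.0% and 25.5%. The median ratio of 21 over 7 dpi was -0.69 in ApoE3 and -1.16 in ApoE4, against 0.00 over all genes. As deposited the set medians were -0.62 and -0.64, so the gap between genotypes rests on the scaling. Called lower in both genotypes were 17 of the 25, beside 21.4% of all genes, and called higher in both were 2 of the 25, beside 19.3%. As deposited 14 of the 25 were called lower in both and 4 higher, beside 9.84% and 29.97% of all genes, a count added after the values were seen.

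Itga5 and Nid1 had the lowest ratios in ApoE3 and were among the lowest 3 in ApoE4. Itga5 was at 29.5 and 43.9 FPKM at 7 dpi and at 5.76 and 8.44 FPKM at 21 dpi in ApoE3 and ApoE4, with ratios of -2.26 and -2.74. Nid1 was at 20.6 and 22.6 FPKM and then at 4.31 and 3.97 FPKM, with ratios of -2.10 and -2.67. Nid2 was at -1.52 and -1.77. Itgam was at -1.80 and -1.73, from 48.9 and 58.3 FPKM to 14.2 and 25.0 FPKM, and Itgax at -0.83 and -1.29. Itgb8 was at -1.92 in ApoE3 and -1.16 in ApoE4. Without scaling Itgam was at -1.71 and -1.19, Itgax at -0.74 and -0.76 and Itgb8 at -1.84 and -0.655.

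Among the laminins, Lamb1 had ratios of 21 over 7 dpi of -1.26 in ApoE3 and -2.75 in ApoE4, the lowest value of any member in ApoE4. Lama2 was at -1.06 and -1.67, Lamc1 at -0.65 and -1.43, and Lama4 at -1.20 and -1.44. Without scaling Lamb1 was at -1.17 and -2.34, Lama2 at -0.96 and -1.14, Lamc1 at -0.55 and -0.92 and Lama4 at -1.14 and -1.06. Lamb2 was at -0.13 in ApoE3 and -0.59 in ApoE4, so it passed the fold in ApoE4 only, and its FPKM as deposited hardly differed (39.8 and 40.3 at 7 dpi, 38.9 and 39.0 at 21 dpi). Whether the laminins differed between genotypes in their course over time was not tested. Lama5 ran against the other laminins, with 0.73 in ApoE3 and 0.61 in ApoE4 (0.82 and 1.16 as deposited). Its levels went from 21.6 and 26.4 FPKM to 39.0 and 60.3 FPKM. Lamc3 (0.04 and -0.09, the latter 0.21 as deposited) and Agrn (0.27 and 0.15) did not pass the fold when scaled. As deposited Agrn in ApoE4 was at 0.71, past the fold.

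Many beta and alpha integrins had ratios of similar size. Itgb1 had ratios of -1.10 and -1.33, Itgb5 of -1.11 and -1.20, Itga6 of -1.06 and -1.28, Itgb3 of -0.69 and -0.75, Itga1 of -0.61 and -0.77, and Itga9 of -0.40 and -0.95. As deposited Itgb1 was at -1.01 and -0.79, Itgb5 at -1.01 and -0.64 and Itga6 at -0.96 and -0.73, so the genotype with the lower ratio turned with the scaling. Itgb3 in ApoE4 (-0.34) and Itga9 in ApoE3 (-0.32) did not pass the fold as deposited. Itgav was at -0.58 and -0.54. Without scaling Itgav in ApoE4 was at 0.01, where the ratios of all genes as deposited had a median of 0.53 in ApoE4 and 0.09 in ApoE3. Higher at 21 dpi were Itga2b (0.83 and 0.43), Itga7 (0.67 and 0.35) and Itgb4 (0.55 and 0.15), of which only Itga2b passed the fold in both genotypes. As deposited Itga2b, Itga7 and Itgb4 in ApoE4 were at 0.91, 0.91 and 0.70, all past the fold. Itgb7 was at -0.05 and -0.34 when scaled and above 0 in both genotypes as deposited.

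**Figure D4:**
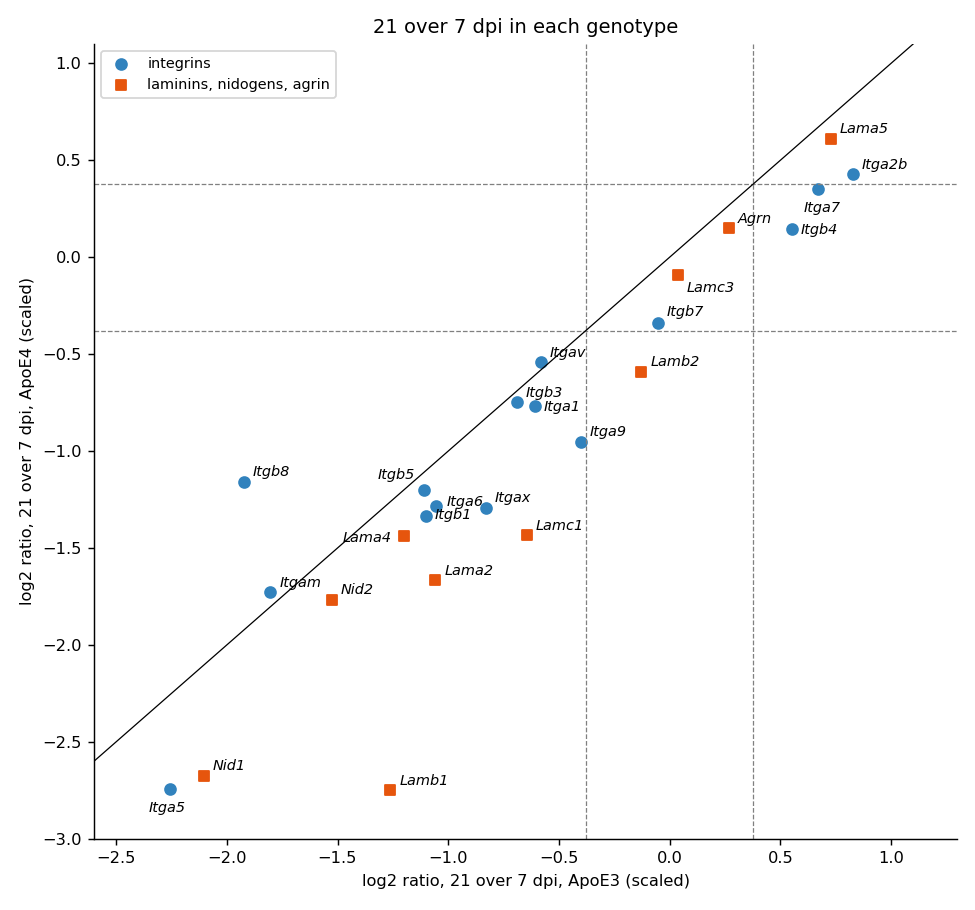
Scaled log2 ratio of 21 over 7 dpi in ApoE3 (x axis) and in ApoE4 (y axis) for the 25 genes listed at both time points, with circles for integrins, squares for laminins, nidogens and agrin, dashed lines at a fold of 1.3 and a solid line of equal ratios. Most genes lie in the lower left, with Itga5, Nid1 and Lamb1 lowest in ApoE4, and Lama5, Itga2b, Itga7, Itgb4 and Agrn lie above 0 on both axes.

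Markers of several cell types differed between 21 and 7 dpi. The 5 monocyte and macrophage markers listed at both time points were all called lower in each genotype, with median ratios of -4.12 in ApoE3 and -3.51 in ApoE4 and sums of 5718, 7547, 289 and 565 FPKM in the 4 groups. Microglial markers had 3 and 2 of 4 called lower and 0 and 1 called higher, with medians of -0.62 and -0.54 (-0.52 and 0.01 as deposited). Neutrophil markers had 3 of 5 called lower in ApoE3 (median -0.51) and 3 of 5 called higher in ApoE4 (0.47), with medians of -0.42 and 0.77 as deposited. The 8 fibroblast and meningeal markers had medians of -1.59 and -3.12, with 5 and 7 called lower, 2 and 0 called higher and sums of 670, 856, 132 and 85.5 FPKM. Their most abundant gene at 7 dpi, Col1a1, was at 212, 270, 2.44 and 2.27 FPKM. Pericyte and smooth muscle markers had 5 and 6 of 8 called lower in ApoE3 and ApoE4, with medians of -0.40 and -0.75. As deposited these were 3 and 2 of 8, with 1 and 2 called higher and medians of -0.33 and -0.22. Astrocyte markers had 5 and 2 of 8 called lower and 1 called higher in each genotype, with medians of -0.54 and -0.21. As deposited the astrocyte medians were -0.44 and 0.34, so the direction in ApoE4 turned with the scaling. Neuron markers had medians of 0.63 and 1.08 (0.72 and 1.64 as deposited), endothelial markers of 0.09 and 0.02 (0.19 and 0.56 as deposited, with 3 and 6 of 9 called higher), and erythrocyte markers of 1.43 and 1.27 with all 4 called higher in each genotype. In ApoE3 all 7 Schwann cell markers were called higher (median 1.69), against 1 of 7 in ApoE4 (-0.16 scaled and 0.09 as deposited). In ApoE4 all 6 skeletal muscle markers were called higher (2.95), against 5 of 6 called lower in ApoE3 (-0.998). The part of these cells in the ratios over time was not tested.

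The makeup of each class of chains differed between the days, which can be read within a group and without scaling. Among the 3 laminin alpha chains listed at both time points, Lama2 made up 61.1% and 56.8% of their summed FPKM at 7 dpi and 33.8% and 23.2% at 21 dpi in ApoE3 and ApoE4. Lama5 made up 32.0% and 35.0%, then 63.6% and 73.8%. Lamb1 made up 33.8% and 34.2% of the sum of Lamb1 and Lamb2 at 7 dpi, and 17.8% and 7.87% at 21 dpi. Lama5 thus had the largest share of the alpha chains at 21 dpi in both genotypes, and the beta chains were mostly Lamb2 in all 4 groups.

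Integrin alpha chains differed in makeup as well. Of the 9 listed at both time points, Itga6 held the largest share at 7 dpi, with 38.7% and 39.0%, and Itga7 at 21 dpi, with 48.3% and 39.1%. The ratio of Itga6 to Itga7 was 1.76 and 2.22 at 7 dpi and 0.528 and 0.708 at 21 dpi. Itga5 took 6.48% and 8.08% at 7 dpi and 1.63% and 1.83% at 21 dpi, and Itgam 10.7% and 10.7%, then 4.02% and 5.40%. Of the 6 beta chains, Itgb5 held 74.9%, 79.4%, 61.4% and 70.6% in the 4 groups, lower in ApoE3 than in ApoE4 at each time point. Itgb4 went from 10.1% and 8.06% to 26.5% and 18.3%. Agrn accounted for 36.9%, 32.1%, 52.4% and 50.1% of the summed FPKM of all 25 genes.

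**Figure D5:**
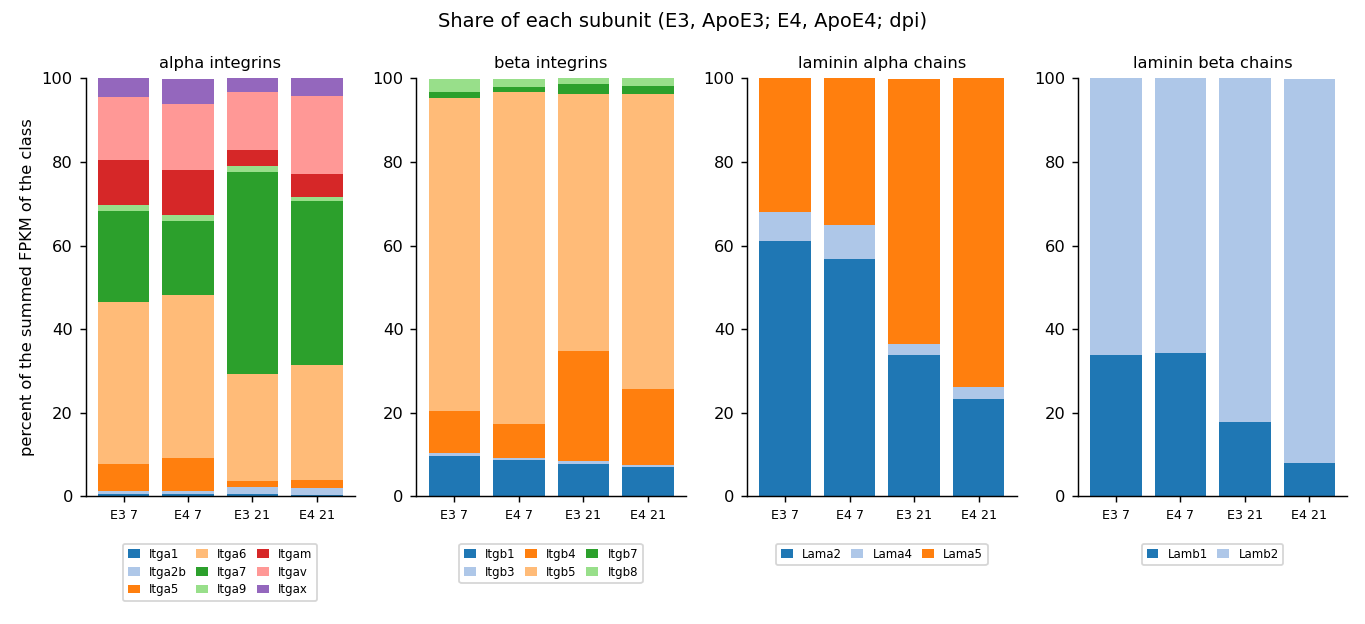
Share of each chain in the summed FPKM of its class (stacked bars, percent) in ApoE3 (E3) and ApoE4 (E4) at 7 and 21 dpi, for genes listed at both time points. Itga7 and Itgb4 take larger shares at 21 dpi, Lama5 replaces Lama2 as the largest laminin alpha chain, and the Lamb1 share is lowest in ApoE4 at 21 dpi (7.87%).

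The cytoplasmic machinery of integrin adhesion links the receptors to actin. Of 32 genes for talins, kindlins, focal adhesion kinases and their partners, 31 were listed at 7 dpi and 0 were called in either direction, with a median ratio of -0.04. The most abundant was Ptk2, the focal adhesion kinase, at 1047 FPKM in ApoE3 and 937 FPKM in ApoE4 (0.16). The lowest ratio was that of Lims2, an adaptor of integrin-linked kinase, at 80.7 and 105 FPKM (-0.37), and the highest that of Parva at 70.4 and 61.2 FPKM (0.20). At 21 dpi 23 were listed, and Pxn, the scaffold paxillin, was called higher in ApoE3 at 123 and 114 FPKM (0.56), but not as deposited (0.11). The median was 0.13 when scaled and -0.32 as deposited, with 9 of 23 called lower as deposited, and the most abundant gene, Tns1, was at 814 and 936 FPKM (0.25). Apbb1ip, a Rap1 effector of leukocytes, had the lowest ratio at 18.8 and 29.6 FPKM (-0.20).

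Of the ligands of integrins other than laminins, 16 were listed at 7 dpi and 5 were called lower in ApoE3, 0 higher, with a median of -0.16 and 5 above 0. Thbs1, thrombospondin of platelets and activated stromal cells, had 15.7 FPKM in ApoE3 and 32.9 FPKM in ApoE4 (-1.02). The most abundant, the matricellular protein Postn, had 119 and 200 FPKM (-0.75). Icam2, an endothelial ligand of LFA-1, had the highest ratio at 30.7 and 24.4 FPKM (0.32). Fn1 and Spp1 were not listed at 7 dpi. At 21 dpi 19 of 30 were listed, 4 called higher and 1 lower in ApoE3, with a median of 0.04 when scaled and -0.40 as deposited, where 2 were called higher and 10 lower. The gene called lower on the scaled values was Spp1, osteopontin, also the most abundant, at 918 and 1809 FPKM (-0.53), and Cdh1 had the highest ratio at 2.44 and 0.162 FPKM (1.90).

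Other basement membrane genes included collagen IV chains and linker proteins. At 7 dpi 17 of 20 were listed, 6 were called lower in ApoE3 and 0 higher, with a median of -0.27 and 4 above 0. Col4a1, the most abundant, was at 458 and 553 FPKM (-0.27), Col7a1 had the lowest ratio at 5.70 and 11.9 FPKM (-0.95) and Smoc2 the highest at 26.6 and 21.8 FPKM (0.28). At 21 dpi 13 were listed, 6 were called higher and 1 lower, with a median of 0.34 when scaled. As deposited, 1 was called higher and 2 lower, with a median of 0.03. Smoc2 was at 4.97 and 1.88 FPKM (1.44), Col7a1 at 1.12 and 2.37 FPKM (-0.41), and the most abundant by the mean, Col18a1, at 37.2 and 35.8 FPKM (0.49). Col4a1 and Col4a2 were not listed at 21 dpi.

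Laminin receptors outside the integrin family were nearly level at 7 dpi, with 1 of 19 listed called lower in ApoE3, 0 higher and a median of -0.01. That gene was Pomt1, which helps to glycosylate dystroglycan, at 26.3 and 36.7 FPKM (-0.47). The most abundant, Dtna of the dystrophin complex, was at 1368 and 1343 FPKM (0.03). At 21 dpi 13 of 22 were listed and 1 was called higher, the laminin receptor Bcam, at 45.8 FPKM in ApoE3 and 31.4 FPKM in ApoE4 (0.97 scaled and 0.53 as deposited). Sgca had the lowest ratio at 3.96 and 6.85 FPKM (-0.29), Dtna was at 1655 and 2416 FPKM (-0.10), and the median was 0.13 when scaled and -0.32 as deposited, where 5 were called lower. Dag1, which encodes dystroglycan, was at 418 and 414 FPKM at 7 dpi (0.01) and was not listed at 21 dpi.

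The remaining marker lists complete the picture of the tissue. At 7 dpi fibroblast and meningeal markers had all 10 genes listed, 2 called lower and 1 higher in ApoE3, a median of -0.32, sums of 673 and 860 FPKM and Col1a1 at 212 and 270 FPKM. Both listed platelet markers of 8 were lower in ApoE3 at 7 dpi, with Pf4 at 12.4 and 21.1 FPKM, sums of 13.96 and 25.1 FPKM and a median of -0.85. At 21 dpi 3 were listed, 2 called lower, with a median of -0.47 (-0.73 as deposited, with all 3 called lower) and sums of 6.25 and 14.2 FPKM. Neuron markers were all above 0 at 7 dpi, with 2 of 10 called higher in ApoE3, a median of 0.26 and sums of 5722 and 4502 FPKM. At 21 dpi 8 neuron markers were listed with 2 called lower and a median of -0.17 (-0.60 as deposited, with 5 called lower). Endothelial markers at 7 dpi had a median of -0.04 with 0 of 10 called, and Slco1a4 was at 162 and 140 FPKM. Pericyte and smooth muscle markers at 7 dpi had a median of -0.16 with 2 of 10 called lower, and Rgs5 was at 109 and 109 FPKM.

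Lists with little difference between genotypes after scaling were those of astrocytes at 7 dpi (median 0.07, 0 of 8 called), oligodendrocytes (0.09 at 7 dpi over 4 genes and -0.10 at 21 dpi over 6, 0 called, but -0.55 with all 6 called lower in ApoE3 as deposited) and dendritic cells (-0.01 over 4 and 0.04 over 3, 0 called, but -0.40 with 2 of 3 called lower as deposited). Erythrocyte markers were alike, with 0.04 over 5 genes and 0.16 over 4 (-0.29 as deposited) and 0 called. Neutrophil markers at 7 dpi had a median of 0.43, and at 21 dpi 3 of 6 were called lower, with a median of -0.39 (-0.76 as deposited, with 5 called lower). Schwann cell markers at 7 dpi had a median of -0.05 over 7 genes, with 2 called lower and sums of 825 and 819 FPKM. Sensory ganglion markers at 7 dpi had 3 listed genes, of which 2 were called higher in ApoE3, with a median of 0.48. Skeletal muscle markers at 7 dpi had 7 listed genes, 2 called higher and 1 lower in ApoE3, with a median of 0.28. No T or NK cell marker was listed at 7 dpi, and of 10 only Cd3g and Nkg7 were listed at 21 dpi, both called lower in ApoE3, with Nkg7 at 1.23 and 2.62 FPKM.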

How the data were processed

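Lesion segments of about 4 mm were sequenced by the authors on the Illumina HiSeq platform as single-end reads, and every library was down-sampled to the depth of the smallest. Per the labels, STAR 2.5.4b, Bowtie2 2.1.10, SAMtools 0.1.7 and Cuffdiff 1.3.0 were used, and the study's methods give another Bowtie2 release. The genome build is not given in the sources used here. The authors deposited FPKM plus 1 as a single value per gene and group, and 1 was subtracted. All rows had a test status of Ok. Columns of the authors' own comparison (fold change, its log2, p-value, q-value and a significance call) and a second deposited table of their differentially expressed genes gave no value used here.

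Ratios were log2((s × FPKM + 1)/(FPKM + 1)), where s brought the log2 ratios of genes averaging 1 FPKM or more to a median of 0 before 1 was added. At 21 dpi s was 1.36 for ApoE3, from 11365 genes. A fold of 1.3 was a call. No test was run, since 1 value per group gives no spread. A total of 3 symbols were on several rows, none of them a member, and the first row was kept.

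The members, the 4 lists of related genes and the 16 marker lists were chosen with earlier results of these data known. Named were the listed members, the most abundant gene and the extreme ratios of each list of related genes, and the most abundant gene and markers at 0 of each marker list. Scn10a, Dcn, Dag1, Siglech, Cd3g and the genes named only as not listed were added after their values were seen. Some genes that these rules take are not reported here. Columns were read as ApoE3 before ApoE4, after the name of the comparison, the sample marked as treated and the order in which the ratio column divides. Alternatives were a pseudocount of 0.1 FPKM, no scaling, a factor from genes with a mean of at least 10 FPKM, a minimum mean of 1 FPKM and a fold of 1.5. Gene names and neighbours came from RefSeq GRCm38.p6. Python 3.11.15, numpy 2.4.6, pandas 2.3.3 and matplotlib 3.10.9 were used, and the scaling and the calls were tested on simulated data.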

Additional observations from a re-analysis of the deposited data

Results flagged for a closer look

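For 6 genes the ratio of ApoE3 over ApoE4 had opposite signs at 7 and 21 dpi, with a scaled ratio past the fold of 1.3 on at least 1 of these days. The share of all genes that meets these 2 conditions is not given here. With 1 value per group each such difference between days was not tested. For Lamb1, Lama2 and Lamb2 the ratio at 7 dpi was close to 0 (-0.04, -0.05 and -0.02), so the opposite sign adds little to the call at 21 dpi. Itgb8 went from 0.26 at 7 dpi to -0.54 at 21 dpi, a difference of -0.80. Lamb1 went from -0.04 to 1.53, a difference of 1.57, and Lamc1 from -0.35 to 0.44, a difference of 0.79. Lama2 differed by 0.61 between the days, Nid1 by 0.60 and Lamb2 by 0.46. These differences depend on the scaling at 21 dpi, and without it the opposite signs of Lamb2 are lost. Lamc1, Lama2 and Nid1 then kept opposite signs but passed the fold on neither day, so only Itgb8 and Lamb1 still met both conditions. As deposited, the ratios at 7 and 21 dpi were 0.26 and -0.92 for Itgb8, -0.04 and 1.12 for Lamb1, -0.35 and 0.01 for Lamc1, -0.05 and 0.12 for Lama2, -0.13 and 0.09 for Nid1, and -0.02 and -0.002 for Lamb2.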

How the results depend on the processing

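Across the 4 comparisons 53 member ratios passed the fold. All 53 did so with a pseudocount of 0.1 FPKM and with a factor from genes of at least 10 FPKM. The pseudocount newly called 2, Lama4 in ApoE3 over ApoE4 at 7 dpi (-0.40) and Nid2 at 21 dpi (0.57), and the other factor 1, Itgav at 21 dpi (-0.38). Without scaling, 12 were newly called, 45 still passed, 6 kept their direction under the fold and 2 turned to the other side of 0: Lamb2 in ApoE3 over ApoE4 at 21 dpi (-0.002 in place of 0.44) and Itgav in 21 over 7 dpi in ApoE4 (0.0133 in place of -0.54). Without scaling the counts also moved. At 21 dpi 2 in place of 6 were called higher in ApoE3 and 11 in place of 2 lower, beside 2.01% and 58.9% of all genes without scaling. In ApoE4 5 in place of 2 were called higher at 21 than at 7 dpi. Of all 10879 genes in that comparison, 6420 in place of 2778 were called higher. With a fold of 1.5, 2 in place of 4 were called lower in ApoE3 at 7 dpi. At 21 dpi that fold left 2 in place of 6 called higher and 0 in place of 2 lower, and left 1 in place of 2 higher in 21 over 7 dpi in ApoE4. The shares of all genes at a fold of 1.5 are not given here, so these drops cannot be set against them. The other counts within a single comparison stayed within 1.5 times under each alternative. Counts shared by 2 comparisons moved more without scaling. Members called higher at 21 dpi in both genotypes were 4 in place of 2, beside 29.97% in place of 19.3% of all genes. Itga5 and Itgax joined Itgb5 as lower in ApoE3 on both days, a count whose share of all genes was not computed. Read counts per gene are not known, which leaves counting error ungiven, and no mouse could be left out. If the columns follow their numbering, ApoE3 and ApoE4 trade places throughout.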

Other observations

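The set covers both sides of cell to matrix contact, and the ratio of partner chains within a group is free of scaling. Itgav to Itgb5 stood at 0.147 and 0.132 at 7 dpi and at 0.211 and 0.208 at 21 dpi in ApoE3 and ApoE4. Itga5 to Itgav went from 0.430 and 0.513 to 0.118 and 0.0976. Lamc1 to Lamb2 was 0.564 and 0.716 at 7 dpi and 0.385 and 0.381 at 21 dpi, so the genotypes had similar values at the later day while Lamb1 to Lamb2 did not. Nid1 to Nid2 was 3.44 and 4.04, then 2.81 and 2.88.

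Summed over the 9 alpha integrins listed at both time points, FPKM was 456 and 543 at 7 dpi and 354 and 462 at 21 dpi. The 6 beta integrins summed to 622, 815, 376 and 588 FPKM, the 3 laminin alpha chains to 67.6, 75.5, 61.3 and 81.6 FPKM, and the pair of nidogens to 26.6, 28.2, 5.84 and 5.35 FPKM.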
